A study of Bos taurus with 44 samples.

Results

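Intercaruncular endometrium of cattle that received in vitro fertilised embryos by transfer (IVF-ET) was compared with that of artificially inseminated cattle (AI). The comparison took the 10 arrays, of 44 in the series, whose labels give the intercaruncular area and set an IVF-ET animal (FIV in the labels) against an AI animal (IAT). Each array carried RNA of 1 animal of each group in 2 dyes, Cy3 and Cy5. The arrays form a closed loop of 5 IVF-ET and 5 AI animals, in which each animal was hybridised once in each dye against 2 different animals of the other group. The other 34 arrays hold the same comparison in caruncular tissue (10 arrays) and comparisons that involve embryos from somatic cell nuclear transfer (SCNT) or CJ animals, which the labels describe as cycling. Breed, age, day of sampling and number of embryos transferred are not given in the labels. No agent or genetic change is named for any group.

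The lining of the cow's uterus has 2 areas. Caruncles are the gland-free knobs on which the placenta attaches, and the intercaruncular area between them holds the uterine glands, whose secretions feed the conceptus before it attaches. In early pregnancy the trophoblast, the outer layer of the conceptus, secretes interferon tau. This signal raises interferon-stimulated genes in the endometrium and keeps the oxytocin receptor low, which prevents the release of prostaglandin F2 alpha that would end the pregnancy. An embryo fertilised in vitro and then transferred reaches the uterus by instrument, without having been in the oviduct.

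Each value below is a log2 ratio turned to IVF-ET minus AI, so a value of 1 means a level in the IVF-ET animal that is double that of the AI animal. Which of the dyes stands on top of the ratio is not stated in the labels. Cy5 was placed there as the likely reading, because the median of 26 interferon-stimulated genes then lay at 1.80 for SCNT against CJ and 1.18 for AI against CJ animals (10 arrays each), and the oxytocin receptor OXTR at -3.54 and -2.60. With Cy3 on top, all signs given here would turn. Only ratios were given, so the labelled tissue could not be checked against the level of its markers. In tissue pieces such as these, fewer cells of a type and less RNA per cell cannot be told apart. The SD of the log2 ratios over probes ran from 0.323 to 0.619 per array, the array medians from -0.02 to 0.00, and the correlation between the 2 spots of a probe from 0.624 to 0.89 (a description over probes). The labels give RNA integrity numbers of 7.5 to 9.5 over all samples.

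Of the 10 arrays, 3 stood apart on interferon-stimulated genes. The median of the 26 measured genes was -1.94 on the array of IVF-ET animal 5 and AI animal 4, 0.98 on that of IVF-ET animal 4 and AI animal 2, and 1.23 on that of IVF-ET animal 5 and AI animal 3. On the other 7 arrays it lay between -0.18 and 0.34. RSAD2, an antiviral enzyme induced by interferon, read -5.09, 3.01 and 4.54 on the 3 arrays, and between 0.05 and 1.06 on the others. The ubiquitin-like protein ISG15 read -4.77, 2.61 and 3.35. COL1A1, the main chain of type I collagen, ran the opposite way at 3.05, -3.89 and -2.87, and OXTR read 2.59, -0.23 and -1.13. IVF-ET animal 5 therefore read far below AI animal 4 and far above AI animal 3 for interferon-stimulated genes.

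Around a closed loop in which every animal is used once in each dye, the 10 ratios of Cy5 over Cy3 add to 0 apart from dye effects and measurement error. For RSAD2 they added to -7.88 in the intercaruncular loop and to -0.06 in the caruncular loop. The sums were -5.79 and -0.26 for ISG15, 5.17 and -0.43 for OXTR, and -3.16 and -0.05 for the median of the 26 interferon-stimulated genes. For THBS1 they were -0.41 and -0.05 and for IGFBP2 0.58 and 0.58. Over all probes the SD of the sums was 2.26 against 1.15. The 3 arrays, in the order given above, correlated with the SCNT minus CJ difference at r of -0.54, 0.20 and 0.46. The other 7 lay between -0.13 and 0.05. With the AI minus CJ difference r was -0.28, 0.10 and 0.28 on the 3 arrays, and -0.13 to 0.04 on the other 7. These are descriptions across up to 13816 probes, which share arrays and are not replicates. What set the 3 arrays apart was not tested, and neither was whether the samples on them are those the labels name. If a sample is not, the values of its arrays are not IVF-ET minus AI. Results that they touch are given with all 10 arrays and with the other 7. Both arrays of IVF-ET animal 5 are among the 3, so the other 7 hold no value of that animal. IVF-ET animal 4 and AI animals 2, 3 and 4 keep 1 array each. The 7 arrays are no longer a closed loop balanced for dye.

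**Figure D1:**
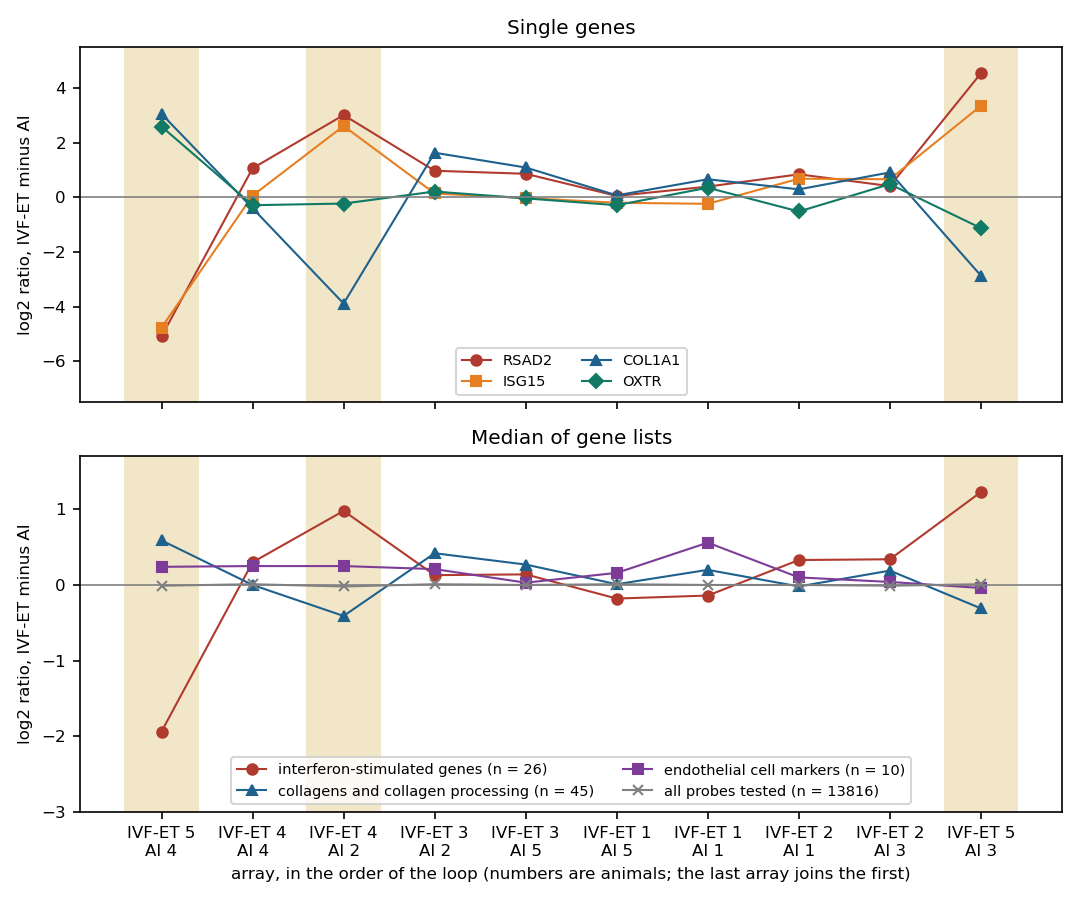
Log2 ratios (IVF-ET minus AI, vertical axes) on the 10 intercaruncular arrays in the order of the loop, for 4 single genes (top) and for the medians of 3 gene lists and all 13816 probes tested (bottom); shading marks the 3 arrays set apart. RSAD2 and ISG15 read -5.09 and -4.77 on the first array and 4.54 and 3.35 on the last, which share IVF-ET animal 5, while the median of all probes stays near 0.

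Few differences between IVF-ET and AI endometrium were larger than the spread between arrays. Of 13816 probes tested with limma, 1 (0.00724%) passed an adjusted p of 0.05, a probe of THBS1 that was higher in IVF-ET animals, and 0 were lower. At an unadjusted p under 0.05, 642 probes were higher (4.65%) and 643 lower (4.65%), and 49% of all probes lay above 0. Both directions together held 1285 probes (9.3%), more than a p under 0.05 marks on average where no probe differs. What gave the excess was not tested. The gene lists below hold 1 probe per gene, while the shares of all probes beside them include probes without a gene symbol. Over all 8071 genes, 1 probe each, 442 were higher and 363 lower at an unadjusted p under 0.05, and 51.8% lay above 0. The median SE of a difference was 0.103. The residual SD of a typical probe was 0.329 in this loop and 0.177 in the caruncular one. In a limma fit over both loops, 0 of 13824 probes (0%) passed for caruncular tissue and 616 had an unadjusted p under 0.05. That fit uses 1 residual variance per probe for both areas. Its counts therefore cannot be set directly against those of the intercaruncular loop fitted alone.

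THBS1 encodes thrombospondin 1, a secreted matrix glycoprotein that activates latent TGF-beta and restrains blood vessel growth. Its log2 ratio was 0.79, 1.45, 0.62, 0.93, 0.83, 0.23, 0.69, 1.02, 0.85 and 0.55 on the 10 arrays in loop order. All 10 arrays read higher in the IVF-ET animal, and the means of the 5 IVF-ET animals over their 2 arrays ranged from 0.46 (animal 1) to 1.03 (animal 4). THBS1 rose by 0.80 ± 0.11 (SE over 10 arrays of 5 and 5 animals, 95% confidence interval 0.57 to 1.02). This is 1.74-fold (limma adjusted p = 0.0488). The call lay just inside the threshold. Leaving out any 1 of the 10 animals ended it, with differences of 0.72 to 0.88 and limma adjusted p of 0.0809 to 0.516. THBS1 also did not pass with a correlation of 0.25 between arrays that share an animal (limma adjusted p = 0.418). On the 7 arrays without the 3 set apart the difference was 0.85 ± 0.13 (limma adjusted p = 0.102).

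IGFBP2, a secreted protein that binds insulin-like growth factors and limits their access to the receptor, had a larger difference that lay just outside the threshold. It read 0.36, 0.66, 1.39, 1.15, 1.57, 0.90, 0.73, 0.41, 0.58 and 0.94 in loop order. The lowest values belonged to IVF-ET animals 5 and 2 and the highest to IVF-ET animal 3, whose mean of 1.36 compared with 0.49 in animal 2. The fitted difference was 0.87 ± 0.12 (95% confidence interval 0.61 to 1.13), or 1.83-fold (limma adjusted p = 0.0528, higher on 10 of 10 arrays), and it was 0.87 ± 0.14 on 7 arrays (limma adjusted p = 0.102). IGFBP2 passed in limma fits without a dye term (adjusted p = 0.035), with a robust prior (0.0362), with weights for the arrays (0.0134) and over both areas (0.00129). In limma it did not pass with a correlation of 0.25 between arrays that share an animal (adjusted p = 0.418) or with centring and scaling (0.168). It also did not pass without any 1 of the 10 animals, with differences of 0.75 to 0.96 and limma adjusted p of 0.0858 to 0.721.

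Among genes of 1 sign on 8 or more arrays, the 24 with the smallest unadjusted p comprised 17 higher and 7 lower in IVF-ET animals. THBS1 passed, and the other 23 did not, with limma adjusted p of 0.0528 for IGFBP2 and 0.231 to 0.332 for the rest. Their values follow as a description, and the dot plot of the 24 genes shows every array.

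On the higher side, ANTXR2, a surface receptor that binds matrix proteins, ranged from 0.04 to 1.12 over the arrays (median 0.54), with a difference of 0.54 ± 0.09. The TGF-beta receptor TGFBR2 ranged from 0.13 to 1.09 (difference 0.49 ± 0.10), with the highest value on the array of IVF-ET animal 4 and AI animal 4, and its other probe lay at 0.19. Both genes were above 0 on 10 of 10 arrays. ADM, a peptide that widens blood vessels, ranged from -0.17 to 1.15 (0.59 ± 0.12), with its only negative value on the array of IVF-ET animal 5 and AI animal 3. CAV1, the coat protein of caveolae, was negative on 2 arrays, at -0.31 and -0.09 (0.48 ± 0.10). ITGB1, the integrin beta 1 chain that anchors cells to the matrix, lay at 0.38 ± 0.09, and COLGALT2, which adds galactose to collagen, at 0.37 ± 0.09.

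ACTB, the cytoskeletal beta actin often used as a reference gene, was measured by 7 probes, all higher in IVF-ET animals. Their differences ran from 0.39 to 0.55 (1.31- to 1.46-fold), on 9 or 10 of 10 arrays, and none passed (limma adjusted p of 0.231 to 0.457). ALDH1A3, which makes retinoic acid from retinaldehyde, lay between 0.03 and 0.77 on all 10 arrays (difference 0.46 ± 0.08). RRM2, the small subunit of ribonucleotide reductase that supplies DNA synthesis, had a difference of 0.53 ± 0.12, and the T-box transcription factor TBX3 one of 0.49 ± 0.12, with its other probe at -0.12. FBXO32, a subunit of a ubiquitin ligase, lay at 0.44 ± 0.10, PEBP1, an inhibitor of Raf kinase, at 0.42 ± 0.10, and KANSL1, of a histone acetyltransferase complex, at 0.42 ± 0.10. MAP3K12, a stress-pathway kinase, lay at 0.39 ± 0.09 and FEZ1, an adaptor for transport along microtubules, at 0.38 ± 0.08.

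On the lower side, ANKRD9, an ankyrin-repeat protein, had the largest difference and the widest spread. It ranged from -3.46 on the array of IVF-ET animal 4 and AI animal 4 to 0.41 on that of IVF-ET animal 5 and AI animal 4 (median -1.14), with a difference of -1.16 ± 0.24 (limma adjusted p = 0.332). NMB, the bombesin-like peptide neuromedin B, lay at -0.91 ± 0.21 over 10 arrays. Its lowest values, -2.31 and -2.08, came from 2 of the 3 arrays set apart, and on the other 7 the difference was -0.47 ± 0.11. PPM1K, the mitochondrial phosphatase that turns on the breakdown of branched-chain amino acids, lay at -0.64 ± 0.14 (its other probe at -0.17). UBAP2, a ubiquitin-associated protein, lay at -0.69 ± 0.17, the zinc transporter SLC30A5 at -0.46 ± 0.11 (its other probe at 0.07), the cone opsin OPN1LW at -0.45 ± 0.11 and parathyroid hormone, PTH, at -0.39 ± 0.09.

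**Figure D2:**
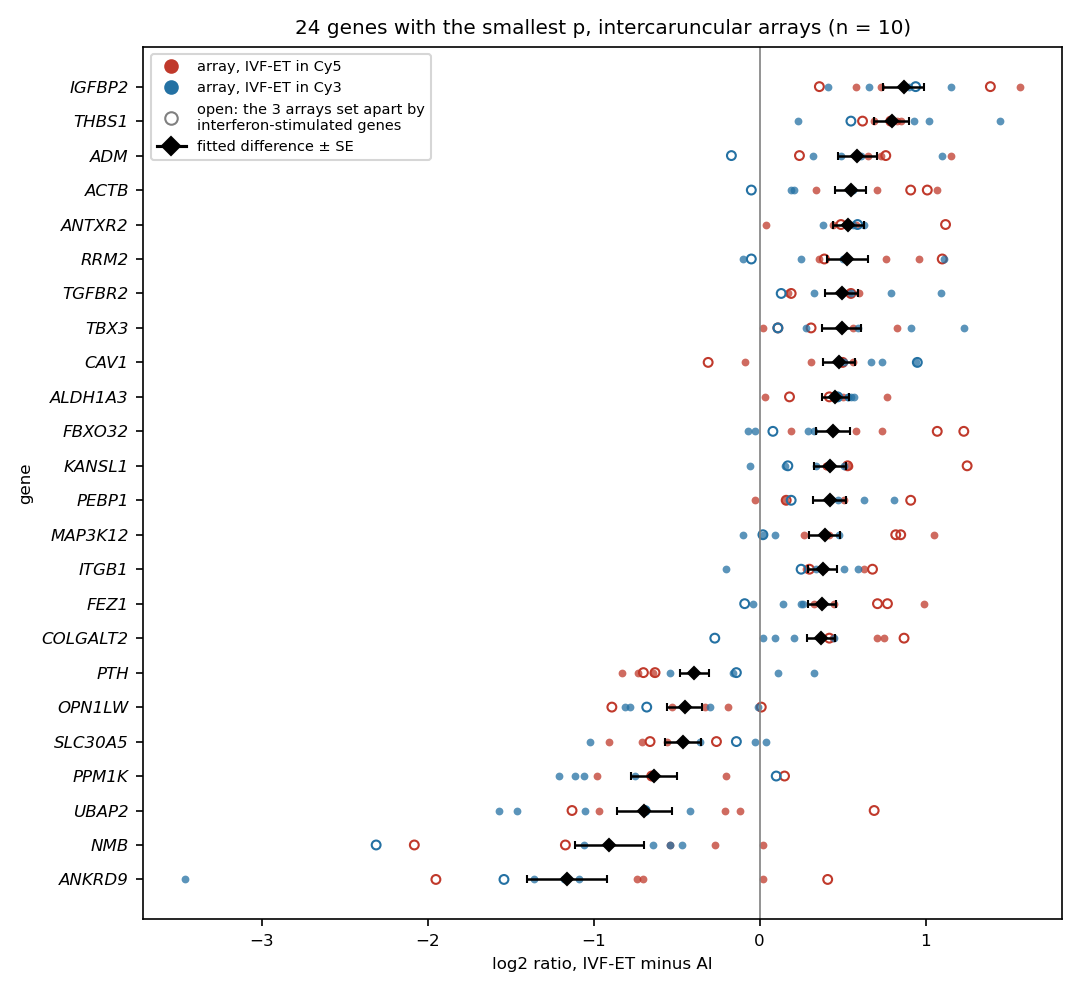
Log2 ratio (IVF-ET minus AI, horizontal axis) of the 24 named genes on each of the 10 intercaruncular arrays (points, by dye of the IVF-ET sample; open points are the 3 arrays set apart) with the fitted difference ± SE (diamonds). THBS1 and IGFBP2 lie at 0.80 and 0.87 with all 10 arrays above 0, and ANKRD9 spreads from -3.46 to 0.41.

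The dye carried part of the spread. In the same fit, 1336 probes (9.67%) had a dye term past an adjusted p of 0.05 in limma. For PTH, the 5 arrays with the IVF-ET sample in Cy5 averaged -0.71 and the 5 with it in Cy3 -0.08, and the ranges did not overlap. FEZ1 averaged 0.65 and 0.10, also without overlap. Among genes named further on for their lists, the ranges did not overlap for SLC13A4 (-0.76 and 0.07) and PRPF8 (0.95 and -0.02). The same held for DECR1 (-0.58 and -0.02) and JCHAIN (-1.49 and 0.03). THBS1 averaged 0.76 and 0.84, IGFBP2 0.93 and 0.81, and ANTXR2 0.53 and 0.54, close in both dyes. For all 24 genes both means had the same sign, which their choice by 1 sign on 8 or more of these arrays made likely.

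Endothelial cells line the blood vessels. Of 10 measured endothelial markers, 6 were higher at an unadjusted p under 0.05, against 4.65% of all probes, 0 were lower, and 0 passed the adjusted threshold. TIE1, a receptor kinase of endothelial cells, read 0.00 to 0.70 (median 0.34, difference 0.33 ± 0.09), with no array below 0. KDR, the main receptor for VEGF, lay at 0.37 ± 0.13, PECAM1, of endothelial junctions, at 0.24 ± 0.11, ROBO4 at 0.25 ± 0.12 and ECSCR at 0.22 ± 0.10. ENG, a TGF-beta co-receptor of endothelial cells, ranged from -1.07 to 1.27 (0.56 ± 0.18, limma adjusted p = 0.469), and its lowest value came from the array of IVF-ET animal 5 and AI animal 3. Without the 3 arrays, and so without IVF-ET animal 5, ENG lay at 0.84 ± 0.11 and passed (limma adjusted p = 0.0484). VWF, the von Willebrand factor stored in endothelial cells, lay at -0.03 ± 0.08 and CLDN5, of their tight junctions, at 0.13 ± 0.24. The list's median was 0.23 (all probes -0.00), 0.26 on 7 arrays, and -0.03 in caruncular tissue. ADM, ANGPTL4 (0.45 ± 0.10), an inhibitor of lipoprotein lipase, FLT1 (-0.36 ± 0.08, yet below 0 on only 5 of 10 arrays), a VEGF receptor that can act as a decoy, and PDGFB (-0.21 ± 0.08), a growth factor for pericytes, headed the 30 angiogenic factors and receptors together with TIE1 and KDR. Of these 30, 4 were higher and 3 lower at that level (13.3% and 10%, against 4.65% of all probes each way), with a median of 0.04.

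TGF-beta and BMP signalling held 33 measured genes, of which THBS1 rose, 5 including THBS1 were higher at an unadjusted p under 0.05 (15.2%, against 4.65% of all probes), and 0 were lower. Beside TGFBR2 and ENG, these were the signal transducer SMAD1 (0.31 ± 0.11) and the co-receptor TGFBR3 (0.40 ± 0.15). The median was 0.09 and that of the arrays ran from -0.04 to 0.19. Among 48 matrix glycoproteins, proteases and inhibitors, THBS1 rose, and 3 including THBS1 were higher at an unadjusted p under 0.05 (6.25%, near the 4.65% of all probes). Of the 48, 36 lay above 0 (75%, against 49% of all probes). TIMP3, a matrix-bound inhibitor of metalloproteinases, ranged from -0.05 to 1.16 (0.51 ± 0.12, limma adjusted p = 0.332), and fibrillin, FBN1, from 0.06 to 1.02 on 10 of 10 arrays (0.35 ± 0.10, limma adjusted p = 0.403). The array of IVF-ET animal 5 and AI animal 4 was highest for both. POSTN, periostin, lay at 0.26 ± 0.12.

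The fibrillar chains COL1A1 (0.06 ± 0.54) and COL1A2 (0.09 ± 0.57) had errors far above their differences, while COL4A1 of the vessel and epithelial basement membrane ranged from -0.25 to 1.23 (0.43 ± 0.13). Of 45 collagens and collagen-processing genes, 6 were higher and 1 lower at an unadjusted p under 0.05 (13.3% and 2.22%, against 4.65% of all probes each way), and 0 passed. The procollagen enhancer PCOLCE2 lay at 0.30 ± 0.08 and LOXL4, a lysyl oxidase, at -0.26 ± 0.09. The list's median was 0.09 on 10 arrays and 0.20 on 7, over a range of array medians from -0.41 to 0.59. For the 13 stromal fibroblast markers the array medians ran from -1.61 to 1.90, with a median difference of 0.09 on 10 arrays and 0.31 on 7.

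The insulin-like growth factor system had 15 measured genes. Beside IGFBP2, the carrier IGFBP3 ranged from -1.21 to 2.88 (0.84 ± 0.32, limma adjusted p = 0.488), and the acid-labile subunit IGFALS lay at 0.16 ± 0.07. IGFBP1, a carrier secreted by ruminant uterine epithelium, lay the other way at -0.34 ± 0.17. The ligands IGF1 (-0.03 ± 0.16) and IGF2 (0.03 ± 0.12) and the receptors IGF1R (-0.02 ± 0.12), IGF2R (-0.01 ± 0.15) and INSR (0.12 ± 0.12) lay within about 1 SE of 0. The median was 0.03, so IGFBP2 and IGFBP3 stood at the head of a list that was centred near 0.

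Of 27 uterine secreted proteins, 5 were higher at an unadjusted p under 0.05 (18.5%, against 4.65% of all probes) and 0 lower. Cathepsin H, CTSH, ranged from -0.17 to 0.66 (0.36 ± 0.09), tissue plasminogen activator, PLAT, from -0.01 to 0.96 (0.44 ± 0.11) and the protease inhibitor A2M from -0.27 to 1.16 (0.31 ± 0.11). Each of these 3 was above 0 on 9 of 10 arrays. CTSK, cathepsin K, lay at 0.58 ± 0.26 with 1 array at 3.43 against a median of 0.26. SERPINA14, the uterine serpin that is the main gland product under progesterone, ranged from -3.64 to 4.22 with 5 arrays above 0 (0.65 ± 0.63, limma adjusted p = 0.791).

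Among interferon-stimulated genes 0 of 26 passed, 1 was higher (IFIH1, an RNA sensor, 0.52 ± 0.19) and 1 lower (IRF7, -0.25 ± 0.10) at an unadjusted p under 0.05, which is 3.85% each way against 4.65% of all probes. The errors of the best-known members were several times smaller without the 3 arrays. Those arrays were set apart on these same genes, so the smaller errors follow from that choice. RSAD2 lay at 0.70 ± 0.61 over 10 arrays and 0.64 ± 0.13 over 7 (limma adjusted p = 0.762 and 0.196), and 9 of 10 arrays were above 0. MX1, an antiviral GTPase, lay at 0.64 ± 0.58 and 0.47 ± 0.16, its relative MX2 at 0.26 ± 0.49 and 0.24 ± 0.17, and ISG15 at 0.23 ± 0.54 and 0.15 ± 0.14. The list's median was 0.20 on 10 arrays, 0.16 on 7 and -0.18 in caruncular tissue. In the class I presentation list, the heavy chain BOLA-NC1 lay at 0.70 ± 0.32 (its other probes at 0.24 and -0.00) and its partner B2M at 0.54 ± 0.35, both lowest on the array of IVF-ET animal 5 and AI animal 4, at -2.02 and -2.12.

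Class II presentation genes and complement had smaller errors. BOLA-DRB3, a class II beta chain, ranged from -0.12 to 0.97 (0.35 ± 0.11, its other probes at 0.11 and -0.02), and the invariant chain CD74 from -0.27 to 0.99 (0.28 ± 0.10). Of 10 class II genes, 3 were higher at an unadjusted p under 0.05 (30.0%, against 4.65% of all probes), and the median was 0.13 on 10 arrays and 0.12 on 7. Of 19 complement genes, 6 were higher at that level and C4A lower (31.6% and 5.26%, against 4.65% of all probes each way). C4A, a component of the classical and lectin pathways, ranged from -1.92 to 0.25 (-0.66 ± 0.16, limma adjusted p = 0.332). The protease C1S lay at 0.62 ± 0.24, its inhibitor SERPING1 at 0.55 ± 0.19, C3 at 0.44 ± 0.16, factor I, CFI, at 0.44 ± 0.15, clusterin, CLU, at 0.41 ± 0.13 and C2 at 0.33 ± 0.13. The complement median was 0.15 on 10 arrays and 0.20 on 7. None of these genes passed the adjusted threshold. Macrophage and dendritic cell markers, which express class II and complement genes too, had a median of 0.08 with array medians of -0.08 to 0.28, and 0 of 11 had an unadjusted p under 0.05. Their part in the class II and complement values was not tested.

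Of 22 trophoblast markers, genes of the conceptus, 6 were higher and 2 lower at an unadjusted p under 0.05 (27.3% and 9.09%, against 4.65% of all probes each way), and 0 passed. The ratios do not show whether these transcripts were above background. The prolactin-related protein PRP4 ranged from -0.51 to 3.07 (0.91 ± 0.30 on 10 arrays, 1.35 ± 0.30 on 7), with its highest values of 3.07 and 2.32 on the arrays of IVF-ET animal 3 with AI animal 2 and IVF-ET animal 2 with AI animal 3. Of the pregnancy-associated glycoproteins, a family of near-identical copies whose probes may share signal, PAG19 lay at 0.82 ± 0.34, PAG9 at 0.45 ± 0.19 and PAG17 at 0.36 ± 0.16, against PAG7 at -0.26 ± 0.12. Interferon tau itself, IFNT2, ranged from -2.44 to 2.02 (0.18 ± 0.32), and the trophoblast Kunitz protein TKDP1 from -2.53 to 2.25 (0.12 ± 0.41). The list's median was 0.15, with array medians from -0.48 to 0.57, and 0.23 in caruncular tissue. Whether tissue of the conceptus in the samples had a part in other values was not tested.

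Among receptors and enzymes of luteolysis, no difference passed the threshold in limma. OXTR ranged from -1.13 to 2.59 (0.11 ± 0.22 on 10 arrays, 0.02 ± 0.11 on 7), the progesterone receptor PGR from -0.82 to 1.47 (0.11 ± 0.15, but -0.11 ± 0.13 on 7 arrays) and the oestrogen receptor ESR1 from -1.06 to 0.75 (-0.13 ± 0.16). Cyclooxygenase 2, PTGS2, lay at -0.01 ± 0.14 (its other probe at -0.36). AKR1B1, which makes prostaglandin F2 alpha in bovine endometrium, had the smallest p of the prostaglandin list. It lay between -0.94 and -0.45 on the 6 arrays with AI animals 2, 4 or 5, and between -0.24 and 0.16 on the 4 arrays with AI animals 1 or 3 (difference -0.47 ± 0.12, limma adjusted p = 0.365). The cortisol-handling enzymes HSD11B1 and HSD11B2 lay at 0.28 ± 0.10 and 0.35 ± 0.16. The lists' medians were 0.05 for receptors and steroid handling and 0.01 for prostaglandins.

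Ribosomal and respiratory chain genes lay on the lower side with small differences. Of 57 cytosolic ribosomal proteins, 45 lay at or below 0, 8 were lower at an unadjusted p under 0.05 (14%, against 4.65% of all probes) and 0 higher. RPL39 ranged from -1.17 to 0.08 (-0.38 ± 0.12), RPS29 from -1.96 to -0.01 on 10 of 10 arrays (-0.48 ± 0.18) and RPS15 from -1.45 to 0.32 (-0.36 ± 0.13), and none passed. COX7A2, a subunit of respiratory complex IV, was below 0 on 10 of 10 arrays, from -0.90 to -0.04 (-0.28 ± 0.09, limma adjusted p = 0.458). Complex I subunits NDUFA11 (-0.32 ± 0.11) and NDUFS4 (-0.27 ± 0.09), the complex III subunit UQCR10 (-0.25 ± 0.08) and the ATP synthase subunit ATP5E (-0.37 ± 0.12) also lay below 0. Medians were -0.11 for cytosolic ribosomal proteins, -0.06 for complexes I and II, -0.08 for complexes III, IV and ATP synthase, and -0.01 for mitochondrial ribosomal proteins. In caruncular tissue they were -0.03, -0.04, -0.09 and 0.01. Ribosomal protein genes have many processed copies, so their probes may share signal.

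Metabolic genes were centred near 0. Of 165 nutrient transporters, 11 were higher and 11 lower at an unadjusted p under 0.05 (6.67% each, against 4.65% of all probes each way), with a median of -0.00. SLC13A4, a sulphate transporter, lay at -0.35 ± 0.08, the glutamate transporter SLC1A1 at -0.64 ± 0.22, the iron exporter SLC40A1 at 0.47 ± 0.14 and the zinc importer SLC39A4 at -0.34 ± 0.10. The glucose transporter SLC2A3 (0.40 ± 0.19) headed glycolysis, PCK2 (0.31 ± 0.11), mitochondrial PEP carboxykinase, the citric acid cycle list, DECR1 (-0.30 ± 0.07) fatty acid oxidation and PMVK (0.23 ± 0.10) cholesterol synthesis. Glutathione peroxidase 3, GPX3, a secreted antioxidant enzyme, ranged from -0.17 to 1.35 (0.46 ± 0.14) and thioredoxin-interacting protein, TXNIP, from -0.72 to 2.66 (0.64 ± 0.26). By dye of the IVF-ET sample, SLC13A4 averaged -0.76 in Cy5 and 0.07 in Cy3, and DECR1 -0.58 and -0.02. PCK2 was the only 1 of 17 in its list that was higher at an unadjusted p under 0.05 (5.88%), and 3 were lower (17.6%). PMVK was the only 1 of 19 higher (5.26%), and 2 were lower (10.5%), against 4.65% of all probes each way. The medians of the metabolic lists lay between -0.10 for cholesterol and lipid synthesis and 0.01 for glycolysis.

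Of genes for growth and cell structure, 5 of 53 cell cycle genes were higher and 0 lower at an unadjusted p under 0.05 (9.43%, against 4.65% of all probes), RRM2 and the chromatin protein HMGB2 first (0.33 ± 0.09, above 0 on 10 of 10 arrays). PRPF8, the core protein of the spliceosome, had the smallest p of 93 splicing genes (0.46 ± 0.09, limma adjusted p = 0.266), yet was negative on 3 of 10 arrays. It averaged 0.95 with the IVF-ET sample in Cy5 and -0.02 in Cy3. In the cytoskeleton list, the capping protein CAPZB lay between 0.06 and 0.71 on 10 of 10 arrays (0.30 ± 0.08), gelsolin, GSN, at 0.43 ± 0.14 and moesin, MSN, at 0.33 ± 0.12, with ACTB. The small heat shock protein CRYAB lay at 0.55 ± 0.19 and BAG2, a co-chaperone, at -0.38 ± 0.11. The Wnt antagonist DKK3 ranged from -0.38 to 1.78 (0.49 ± 0.15), SFRP4 lay at 0.60 ± 0.24 and SFRP2 at 0.50 ± 0.21, while the Wnt list had a median of 0.04. RAB14 (0.31 ± 0.10), the polyadenylate-binding protein PABPC4 (0.33 ± 0.11), the proteasome assembly factor PSMG3 (-0.45 ± 0.15), MRPL23 (-0.23 ± 0.08) and MYC (0.27 ± 0.11) headed their lists, and none passed.

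No marker of another cell type passed the adjusted threshold. Epithelial markers, led by SPINT1 (-0.22 ± 0.11), had a median of -0.03 on 10 arrays and -0.23 on 7, with array medians from -0.71 to 0.56. The mucin MUC1, first of 3 measured gland markers, lay at -0.24 ± 0.15. Of 11 smooth muscle markers, the actin-binding CALD1 (0.50 ± 0.12) and TAGLN (0.55 ± 0.25) were higher at an unadjusted p under 0.05 (18.2%, against 4.65% of all probes). T and NK cell markers had a median of 0.04, with the cytotoxic granule protein GNLY at 0.41 ± 0.22. JCHAIN, which joins secreted antibodies, lay at -0.73 ± 0.26, with 2 arrays at -3.38 and -2.67, against a median of -0.09. It averaged -1.49 with the IVF-ET sample in Cy5 and 0.03 in Cy3. The 5 B and plasma cell markers had a median of -0.28. Neutrophil ELANE lay at -0.26 ± 0.09 and CXCR1 at -0.22 ± 0.08, macrophage LGALS3 at 0.35 ± 0.16, red cell SLC4A1 at 0.11 ± 0.07 and adipocyte LPL at -0.14 ± 0.08. Over all 46 lists, medians lay between -0.28 and 0.23, 30 above 0 and 16 below, and the plot of list medians shows how far the arrays ranged around each.

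**Figure D3:**
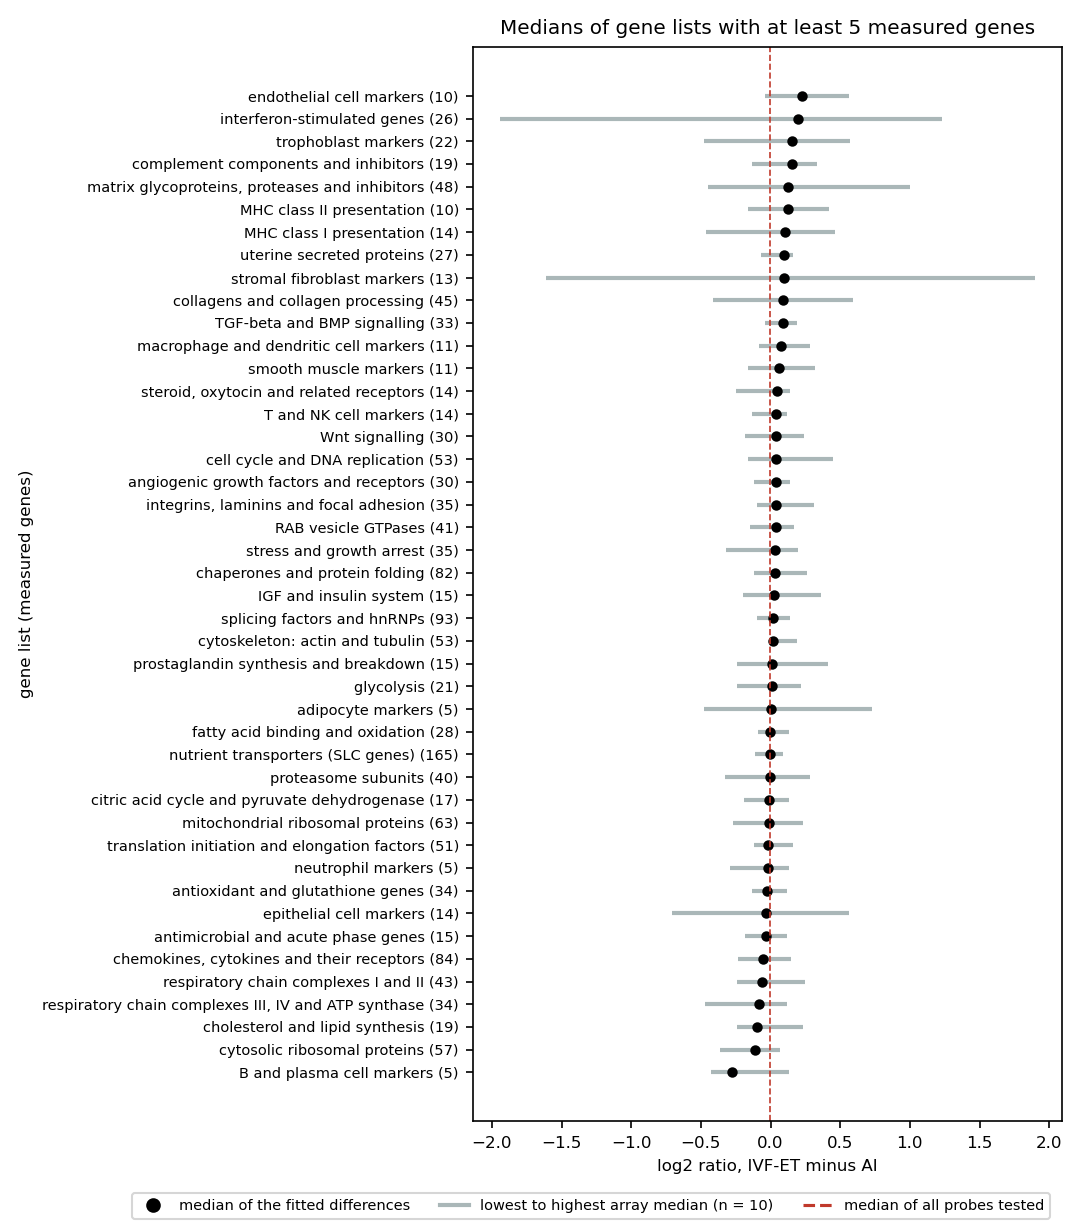
Median fitted log2 difference (IVF-ET minus AI, points, horizontal axis) of each gene list with at least 5 measured genes, with the lowest and highest of the 10 array medians (bars) and the median of all probes tested (dashed). Endothelial markers have the highest median at 0.23, while interferon-stimulated genes (-1.94 to 1.23) and stromal fibroblast markers (-1.61 to 1.90) range most over the arrays.

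The caruncular loop asked the same question in the other area of the uterus, with all 5 IVF-ET animals and 3 of the AI animals in common. The difference between the areas was tested in 1 fit over both loops. IGFBP2 was the only call, 1 of 13824 probes (0.00723%), and 1098 probes had an unadjusted p under 0.05. In caruncular tissue IGFBP2 ranged from -0.60 to 0.28 (median -0.18, difference -0.15 ± 0.11), so every intercaruncular array, from 0.36 up, lay above every caruncular one. The difference between the areas was 1.01 ± 0.15 (limma adjusted p = 0.0236). It lay between 0.93 and 1.05 under 9 alternatives, none of which passed (limma adjusted p of 0.0612 to 0.744). Leaving out each IVF-ET animal in turn gave 0.94 to 1.05, with limma adjusted p of 0.0793 to 0.345.

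For THBS1 the test between the areas did not pass. It ranged from -0.45 to 1.60 in caruncular tissue (0.44 ± 0.15), and the difference between the areas was 0.36 ± 0.21 (limma adjusted p = 0.681). Of the 24 genes, 15 had the same sign in both areas. ADM (0.38 ± 0.12) and CAV1 (0.35 ± 0.09) also lay above 0 in caruncular tissue. ALDH1A3 (-0.15), TGFBR2 (-0.05), TBX3 (-0.11), ANKRD9 (0.01) and NMB (0.17) lay near 0 or on the other side. Since the 24 genes were chosen on the intercaruncular arrays, their smaller caruncular values are a description.

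**Figure D4:**
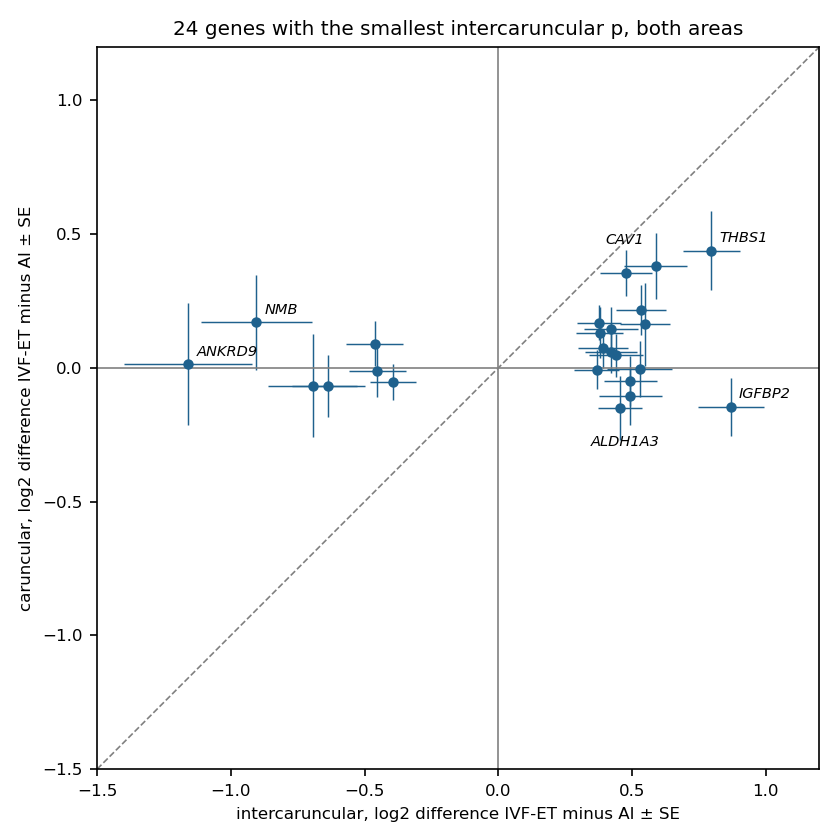
Fitted log2 difference (IVF-ET minus AI) ± SE of the 24 named genes in intercaruncular (horizontal axis) and caruncular tissue (vertical axis), 10 arrays each; the dashed line marks equal values. IGFBP2 lies at 0.87 and -0.15, and THBS1 at 0.80 and 0.44; the genes were chosen on the horizontal axis.

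On 6 arrays per area the same 2 animals met in the same dyes. Across probes these pairs of arrays correlated at r of 0.21, 0.21, 0.15, -0.21, 0.01 and 0.31 (13780 to 13824 probes, a description), for IVF-ET/AI animals 5/4, 4/4, 4/2, 3/2, 3/5 and 1/5. SERPINA14 had the same sign in both areas on 6 of 6, with intercaruncular values of -3.64, 3.38, 4.22, -0.28, -1.28 and 2.20 and caruncular values of -0.62, 2.41, 2.71, -0.37, -0.07 and 1.19 in that order. The 3 highest came from IVF-ET animals 4 and 1 in both areas. RSAD2 read -5.09, 1.06, 3.01, 0.97, 0.86 and 0.05 in intercaruncular tissue and -0.15, -0.94, -1.49, -1.39, -0.45 and -0.15 in caruncular tissue, so the caruncular values of the arrays set apart were not of that size. IFNT2 read 1.47 and 1.82 for animals 1/5, the highest of the 6 in each area, and -2.44 and -0.57 for animals 5/4, the lowest in each.

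**Figure D5:**
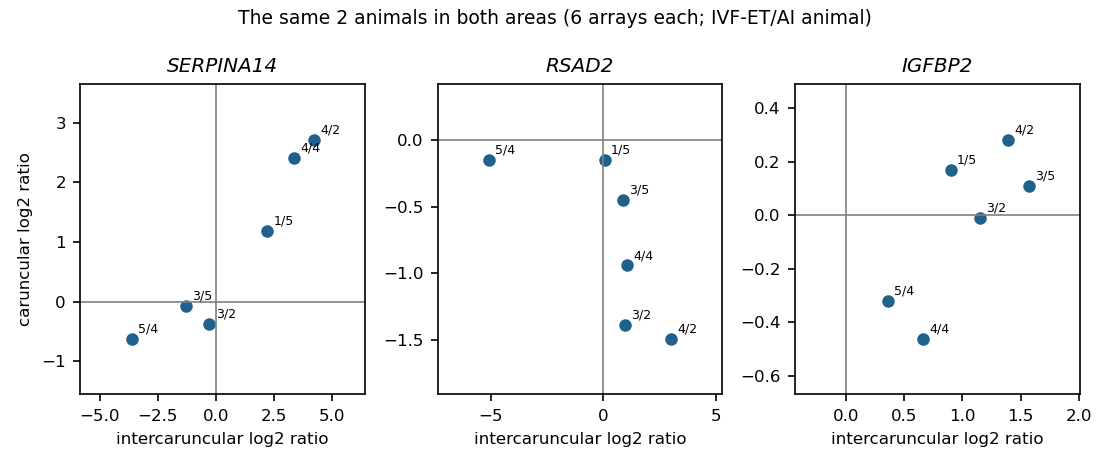
Log2 ratios (IVF-ET minus AI) of SERPINA14, RSAD2 and IGFBP2 on the 6 arrays per area that set the same 2 animals in the same dyes, intercaruncular (horizontal axes) against caruncular (vertical axes); labels give the IVF-ET and AI animal, and scales differ between panels. SERPINA14 keeps its sign on 6 of 6, while RSAD2 reads -5.09 and -0.15 for animals 5/4.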

How the data were processed

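The authors deposited log2 ratios of the 2 dyes, 1 per spot. To test the base, 331 values below -4 were turned back into ratios, and 100.0% gave 4 decimals under log2. Background correction and normalization: not given in the sources used here. No further scaling was applied. The 2 spots of each of 13824 probes were averaged; 8645 probes carry 1 gene symbol (105 several, 5074 none), and a gene with several probes is represented in its list by the probe that has fewest missing values. A probe was tested if 80% of the 10 arrays or more gave a value (13816 were, 8 were not). The fit in limma 3.58.1 (R 4.3.3) was a generalised least squares model of the loop with a term for dye, tested on simulated data. The correlation of arrays that share an animal was estimated at -0.052 and set to 0. The estimate used all 10 arrays, and what the 3 set apart did to it was not tested. Adjusted p-values are Benjamini-Hochberg over all probes tested. A fit over both areas, with 1 residual variance per probe and the areas of an animal taken as separate, gave the caruncular values and the difference between areas.

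The members and gene lists were chosen with earlier results of these data known. Named genes are the 24 of smallest unadjusted p among those of 1 sign on 8 or more arrays (the rule for fewer than 10 genes past the threshold), the first of each list (up to 4 where a member passed), and ISG15, MX1, MX2, RSAD2, PGR, ESR1, OXTR, PTGS2 and SERPINA14. Other genes named were chosen after their values were seen. The animal is the unit of replication, and each animal is on 2 arrays. With the correlation set to 0, the main fit took the 10 arrays as independent. Its SEs and p-values therefore measure the spread between arrays. The number of arrays and animals limits the precision, beside the spread between spots and dyes given above. Spot intensities were not analysed here. Alternatives changed the correlation, dye term, scaling, spot, missing values, prior, areas fitted and animals. Weights for arrays, fits without the 3 arrays and a variance for each area were added after seeing the data. Python 3.11.15 made the summaries.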

Additional observations from a re-analysis of the deposited data

Results flagged for a closer look

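In 75 named probes and 46 list medians, the highest or lowest of the 10 arrays was tested for lying far from the rest. This was so in 16. Chance marks about 1 in 20 such groups where they are separate and not chosen by their values. Most of these probes were chosen by their values on the same arrays, and several are members of the lists. The 16 therefore cannot be set against that rate. The array of IVF-ET animal 5 and AI animal 4 was the extreme one in 11: ISG15 (-4.77), MX2 (-4.12), RSAD2 (-5.09), OXTR (2.59), DKK3 (1.78), FBN1 (1.02), COX7A2 (-0.90), and the medians of interferon-stimulated genes (-1.94), matrix glycoproteins, proteases and inhibitors (1.00), respiratory complexes III, IV and ATP synthase (-0.47) and cell cycle genes (0.45). KANSL1 stood out on the array of IVF-ET animal 4 and AI animal 2 (1.25), and ITGB1 on that of IVF-ET animal 2 and AI animal 1 (-0.20). The median of respiratory complexes I and II was highest for IVF-ET animal 2 and AI animal 3 (0.25), that of the cytoskeleton list for IVF-ET animal 4 and AI animal 4 (0.19), and that of endothelial markers for IVF-ET animal 1 and AI animal 1 (0.56). IGFBP2 differed between the areas by 1.01, the only probe for which that test passed.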

How the results depend on the processing

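Against 1 probe called among 13816, 2 were called without a dye term, 2 with a robust prior, 3 with weights for the arrays (IGFBP2, ANTXR2 and ALDH1A3) and 2 without the 3 arrays set apart. The count was 0 with a correlation of 0.25, with centring and scaling, with the first spot only, and in each of 10 fits that left out 1 animal (0 to 0). The fit over both areas called 105 probes (55 higher, 50 lower); that fit uses more arrays and pools the spread of both areas, and which of these moved the count was not tested. Median centring, the second spot alone and probes with values on all arrays each kept a count of 1. For the difference between the areas, the count of 1 became 0 with the animal pair as a block (6 matched arrays), a correlation of 0.25, centring and scaling, a variance for each area, and without each IVF-ET animal (0 to 0).

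THBS1 stayed between 0.72 and 0.88 under 21 alternatives. Its limma adjusted p was 0.418 at a correlation of 0.25, 0.0843 with scaling, 0.0993 on the first spot and 0.0501 with array weights. THBS1 passed in limma without a dye term (adjusted p = 0.035) and with a robust prior (0.0352). It also passed in limma on the second spot (adjusted p = 0.0272) and over both areas (0.0174). Of 75 named probes, 68 kept their sign in every alternative and 7 did not, all with differences within about 1 SE of 0. Leaving out 1 animal gave -0.24 to 0.87 for ISG15, -0.25 to 0.69 for MX2, -0.07 to 0.21 for PGR, -0.23 to 0.07 for ESR1, -0.15 to 0.23 for OXTR, -0.18 to 0.14 for PTGS2 and -0.14 to 1.03 for SERPINA14. Without the 3 arrays PGR was -0.11 and PTGS2 0.12. Of 46 list medians 44 kept their sign there; that of receptors and steroid handling went from 0.05 to -0.12. Each ratio already sets the IVF-ET animal of an array against its AI animal. No further pairing was possible within this comparison, because replicate numbers do not pair animals. Where the cause of a lost call is not named, the cause was not tested.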

Other observations

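Some other genes also read far from 0 on the 3 arrays set apart (IVF-ET/AI animals 5/4, 4/2 and 5/3). PLET1, a cell surface protein of placenta and epithelia, read -4.41, 1.33 and 2.94, and the fatty acid-binding protein FABP3 -4.32, 1.66 and 3.16. SNAI2, a transcription factor of mesenchymal cells, read 1.58, -2.04 and -2.05, the opposite direction. Over all 10 arrays their differences were 0.42 ± 0.46, 0.17 ± 0.46 and -0.05 ± 0.31 (limma adjusted p of 0.82, 0.943 and 0.979). TKDP1 did not follow this order, at -2.32, 0.03 and -0.08, and read -2.53 on the array of IVF-ET animal 4 and AI animal 4.

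RSAD2 lay above 0 on 9 of 10 intercaruncular arrays and below 0 on all 10 caruncular ones, from -1.49 to -0.05 (difference between the areas 1.28, limma adjusted p = 0.657).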
